A study of Ovis aries with 6 samples.

Results

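oar-miR-21 is the sheep form of miR-21, and it was 1 of 1253 miRNA entries listed for the rumen of fetal sheep. Its values were taken from the entry with that name in each of the 6 libraries, and it was picked for description with earlier results of these data known. The UN group held the rumen of 3 male fetuses of Hu sheep ewes that carried multiple fetuses and whose feed was reduced to 30% of the baseline intake at gestation day 115, for 15 d. The CON group held the rumen of 3 male fetuses of such ewes on normal feed. Small RNA of each fetus was sequenced as 1 library, so P values measure the spread between fetuses. Feed was set for the ewe, and the libraries are not tied to ewes here, so fetuses of 1 ewe could not be told apart. The methods of the study place sampling at day 130, but each sample label states day 115, and the UN group is named TR in the labels. The title of the series names jejunum and ileum, but each sample is labelled rumen, and the sample labels were followed. The libraries come from whole tissue with no sorting of cells, so fewer cells of a type and less miR-21 per cell cannot be told apart.

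A miRNA is a short RNA that guides a repressor complex to mRNAs that pair with its seed, the bases near its 5′ end. In human and mouse, miR-21 is among the most abundant miRNAs of many tissues, represses PDCD4 (an inhibitor of translation), and is known for its increase in fibrosis, inflammation and tumors. oar-miR-143, the most abundant entry here, is known in mouse as a miRNA of smooth muscle, a tissue that forms much of the rumen wall.

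The sequences are those of the supplementary table of the study. Those of miR-21 and of the entries above and next to it in abundance are shown, because the order of levels turns on them, with bases 2 to 8 in capitals as the seed.
oar-miR-21: uAGCUUAUcagacugauguugac
oar-miR-143: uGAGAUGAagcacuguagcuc
oar-miR-148a: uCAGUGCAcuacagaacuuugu
oar-let-7i: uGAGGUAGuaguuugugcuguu
oar-miR-26a: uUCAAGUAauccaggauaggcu
novel_miR_33: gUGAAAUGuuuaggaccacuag
oar-miR-99a: aACCCGUAgauccgaucuug
oar-miR-27a: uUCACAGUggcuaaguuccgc

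oar-miR-21 was 23 bases long, and no other entry had its seed AGCUUAU at bases 2 to 8. A seed that no other entry had was common in the list, with 617 of 1253 entries (49.2%). The seed of oar-let-7i, a member of the let-7 family that restrains growth genes, was found in 10 entries, that of oar-miR-148a in 4, and those of oar-miR-26a and oar-miR-27a in 3 each. The letters of the miR-21 seed lay elsewhere in 1 other entry, novel_miR_924, where the capitals mark the run of 9 bases that it has in common with miR-21.
novel_miR_924: aacuuucAGCUUAUCAuugugg
This entry was named after its values were seen, and it had 10 reads over the 6 libraries. No entry had the sequence of oar-miR-21, and the nearest by edit distance differed by 7 changes, so the list held no near copy of miR-21. No entry is named for the other arm of the hairpin, miR-21-3p, and that arm was not analysed here. In the RefSeq annotation of the assembly ARS-UI_Ramb_v3.0, the gene MIR21 encodes a hairpin of 72 bases inside the span of VMP1, a protein-coding gene of autophagy. Its coordinates are not given, because the assembly that the authors used is not certain to be the same.

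oar-miR-21 made up 2.88% to 3.78% of the assigned reads of a library. The authors' values are RPM, the reads of an entry out of each 1000000 that were assigned to any of the entries. The level of oar-miR-21 was 35872, 28845.5 and 30324 RPM in UN fetuses 1, 2 and 3, against 30979.5, 37825 and 31624 RPM in CON fetuses 1, 2 and 3. These levels stood for 3.59%, 2.88% and 3.03% of assigned reads in UN, against 3.10%, 3.78% and 3.16% in CON. The groups overlapped, with UN fetus 1 and CON fetus 2 standing above the other 4 libraries, which lay within 28845.5 to 31624 RPM.

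The libraries held 18731340 to 27059374 assigned reads in UN and 18584326 to 35555822 in CON, and 1 read was worth 0.0281 to 0.0538 RPM. oar-miR-21 was read 671939, 590758 and 820556 times in UN, against 762047, 702946 and 1124420 times in CON. The 95% Poisson interval of each level was therefore within 0.185% to 0.255% of the level on either side. It covers counting error only, since PCR copies were not told apart. The spread between fetuses, with a coefficient of variation (CV) of 10.7% over the 6 libraries, was thus far wider than the counting error.

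oar-miR-143 took a large and variable part of each library, at 37.7%, 43.8% and 48.5% of assigned reads in UN, against 42.3%, 29.5% and 50.03% in CON. Because RPM of all entries add up to 1000000, a library with less oar-miR-143 leaves more RPM to the other entries as a sum, but not to each of them. For example, oar-let-7f was lowest in UN fetus 1, at 14794 RPM. The part of oar-miR-143 in the level of oar-miR-21 was not tested. The libraries with the 2 highest levels of oar-miR-21, UN fetus 1 and CON fetus 2, were those with the smallest parts of oar-miR-143. The level was therefore also computed per 1000000 reads once oar-miR-143 was left out.

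On this scale, oar-miR-21 was at 57561, 51310 and 58882 RPM in UN, against 53662, 53645 and 63280 RPM in CON. The highest library was then CON fetus 3 in place of CON fetus 2, and the lowest was again UN fetus 2. CON fetus 2 now lay close to CON fetus 1, and the ratio of the highest to the lowest of the 6 libraries was 1.23, against 1.31 on the deposited scale.

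**Figure D1:**
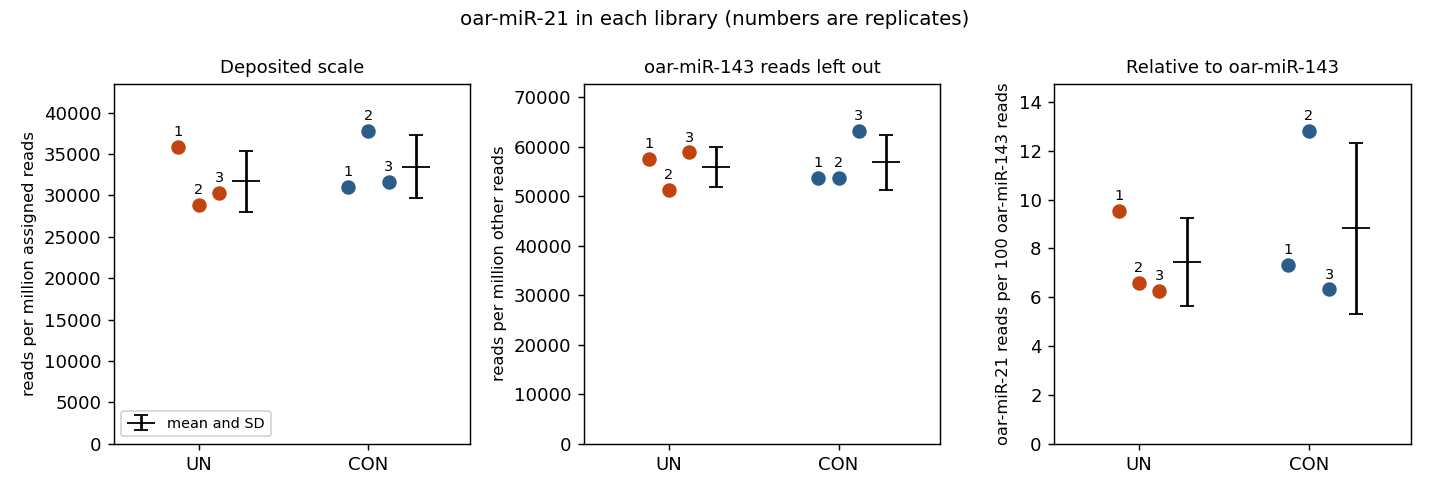
oar-miR-21 in each library as RPM of assigned reads (left), as RPM of reads other than oar-miR-143 (middle) and per 100 oar-miR-143 reads (right), with points for libraries, numbers for replicates and bars for mean and SD (n = 3 each). UN and CON overlap in all 3 panels, and CON 2 is highest in the left and right panels but not in the middle one.

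**Figure D2:**
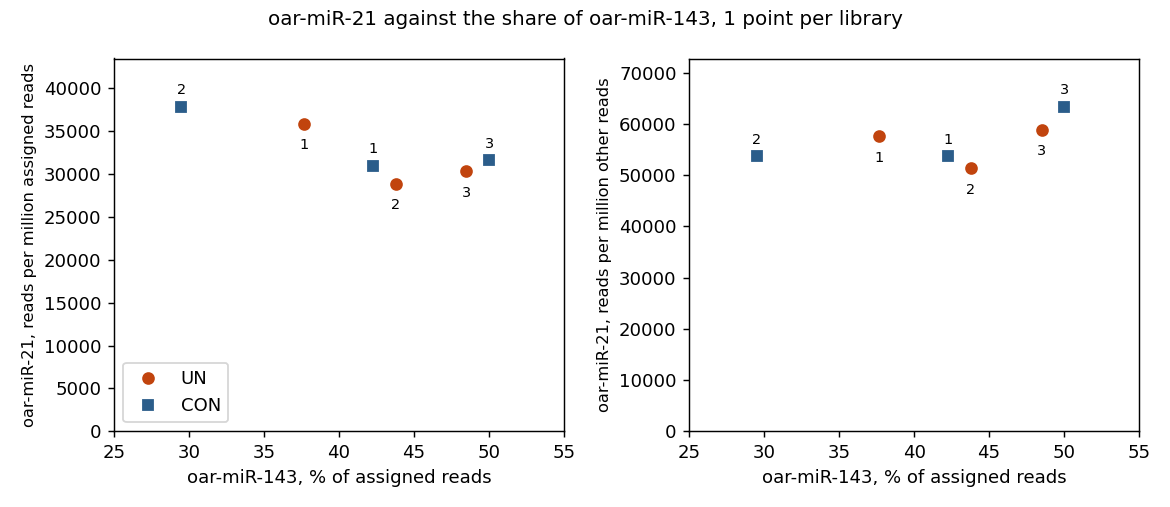
oar-miR-21 (vertical axis, RPM of assigned reads on the left and RPM of other reads on the right) against the percent of assigned reads taken by oar-miR-143 (horizontal axis), 1 point per library with its replicate number. UN 1 and CON 2, with 37.7% and 29.5% of oar-miR-143, are the highest on the left, and CON 3 with 50.03% is the highest on the right.

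oar-miR-21 did not differ between UN and CON beyond the spread between fetuses on either scale. The deposited level averaged 31681 ± 3705 RPM in UN and 33476 ± 3780 RPM in CON (SD, n = 3 each), a difference of -1795 RPM with P = 0.5 by a two-sided exact permutation test. Leaving out CON fetus 2 turned this difference to 379 RPM (exact permutation P = 1). Per 1000000 reads other than oar-miR-143, the level averaged 55918 ± 4045 RPM in UN and 56862.5 ± 5558 RPM in CON, a difference of -944.7 RPM (exact permutation P = 0.8, n = 3 each). The smallest P that 3 against 3 libraries can give is 0.1, so these tests could not reach 0.05.

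With limma on log2(RPM + 1), which pools the spread over all miRNAs tested, the log2 fold change of oar-miR-21 in UN over CON was -0.08 with an SE of 0.17, a ratio of 0.946. Its 95% interval ran from 0.738 to 1.21 as a ratio, and the adjusted P was 0.98 (limma, Benjamini-Hochberg). Over the 567 miRNAs tested, the median log2 fold change was -0.12. On the scale without oar-miR-143, the log2 fold change was -0.02 with an SE of 0.11, and its 95% interval ran from 0.822 to 1.18 as a ratio (limma, adjusted P = 0.996). The median over all miRNAs was then -0.08. An interval of this width includes changes of up to about these bounds, so equal levels in UN and CON were not shown.

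For background, limma called 0 of the 567 miRNAs at an adjusted P under 0.05 (0.0%) and 29 at an unadjusted P under 0.05 (5.11%). On the scale without oar-miR-143, it called 1 of 566 (0.177%) at the adjusted threshold and 34 (6.01%) at the unadjusted one. At the adjusted threshold, edgeR on the recovered reads called 1 miRNA higher and 0 lower in UN, and DESeq2 called 2 higher and 2 lower. The entry called without oar-miR-143 and by edgeR was novel_miR_529 in both cases, and DESeq2 called novel_miR_529 and novel_miR_76 higher and novel_miR_879 and novel_miR_775 lower, names given after their values were seen. oar-miR-21 passed none of these thresholds, with an unadjusted P of 0.64 on the deposited scale and 0.85 without oar-miR-143 (limma).

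The sign of the difference was not the same under each scaling. After TMM scaling, which sets libraries to a trimmed mean of log ratios, oar-miR-21 was at 34552, 30024.5 and 33906 RPM in UN, against 30459, 30107 and 36049 RPM in CON. The log2 fold change was then 0.030, against -0.08 on the deposited scale, with a median over all miRNAs of -0.03. It was also above 0 with quantile normalization (0.024), with edgeR (0.088) and with DESeq2 (0.087), and without CON fetus 2 (0.011). Quantile normalization sets each value by its rank, and oar-miR-21 held only ranks 5 and 6. The value of 0.024 thus rests on rank and not on the measured level. The adjusted P ranged from 0.764 to 0.998 over the 16 alternatives, and none of them brought oar-miR-21 past the threshold.

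**Figure D3:**
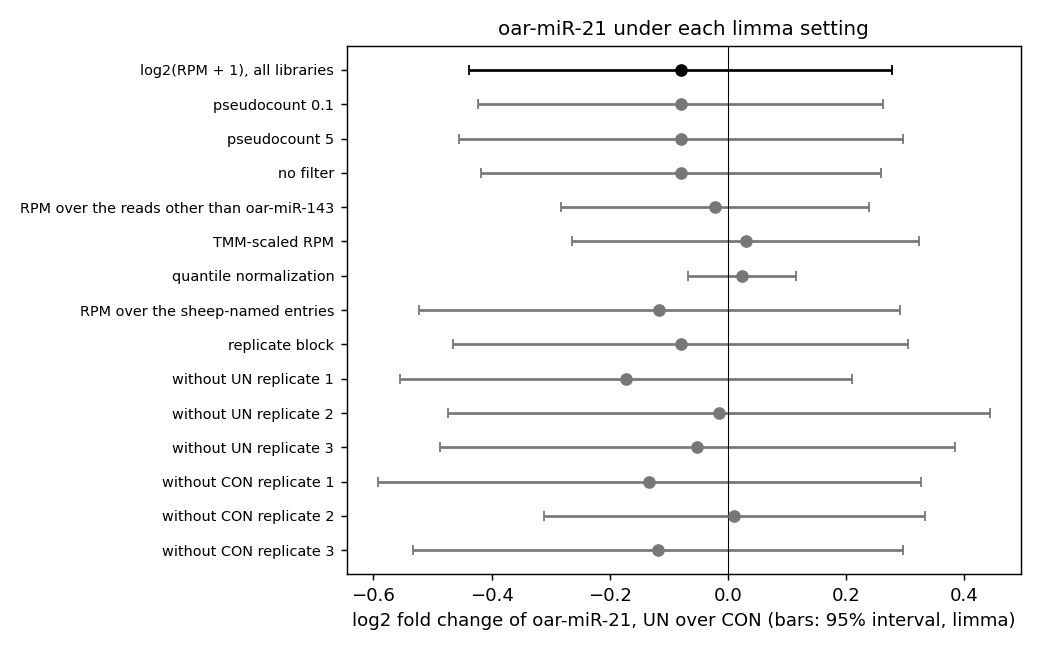
Log2 fold change of oar-miR-21 in UN over CON (horizontal axis, points) with its 95% interval (bars) under each limma setting, with the deposited scale and all 6 libraries in black. Each interval includes 0, and the points lie between -0.17 and 0.03. The narrow interval under quantile normalization follows from ranks 5 and 6 and not from measured levels.

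The ratio of oar-miR-21 to oar-miR-143 within a library does not depend on the library total. There were 9.52, 6.59 and 6.25 reads of oar-miR-21 per 100 reads of oar-miR-143 in UN, against 7.33, 12.8 and 6.32 in CON. The groups overlapped, and UN fetus 1 and CON fetus 2 were again above the other 4. The ratio averaged 7.45 ± 1.80 in UN and 8.83 ± 3.50 in CON, a difference of -1.37 (exact permutation P = 0.6, n = 3 each). Without CON fetus 2 the difference was 0.63. Adjusted over the 3 exact permutation tests of oar-miR-21 (both scales and this ratio), each P was 0.8.

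oar-miR-21 ranked 5, 5 and 6 of 1253 entries in UN, against 6, 5 and 6 in CON. With oar-miR-143 left out, it ranked 4, 4 and 5 in UN, against 5, 4 and 5 in CON. Rank 6 was a near tie in a pair of libraries. In UN fetus 3, the entry above was oar-miR-99a at 30326.7 RPM, inside the 95% Poisson interval of oar-miR-21, which ran from 30259 to 30390 RPM. In CON fetus 3, it was oar-let-7i at 31663.5 RPM, inside the interval of 31566 to 31683 RPM.

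Averaged over the 6 libraries, oar-miR-21 was the fifth entry at 32578 RPM. Above it stood oar-miR-143 at 419579 RPM, oar-miR-148a at 94758, oar-let-7i at 40511 and oar-miR-26a at 39500. Below it came novel_miR_33 at 30691 RPM, oar-miR-99a at 27975, oar-miR-27a at 26415, oar-miR-10a at 18966 and oar-let-7f at 17360. RPM is not divided by length, but the entries shown are of nearly equal length. This is an order of reads, and how evenly adapter ligation and PCR took up each sequence was not measured. The order of molecules in the tissue may therefore differ.

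Some of these steps were wider than their spread and others were not. The log2 ratio of oar-miR-21 to oar-miR-143 was -3.67 ± 0.41 (SD over 6 libraries), and that to oar-miR-148a, known in sheep rumen epithelial cells as a restraint on proliferation, was -1.49 ± 0.38. oar-miR-21 was below oar-let-7i and below oar-miR-26a in each of the 6 libraries, with log2 ratios of -0.30 ± 0.24 and -0.27 ± 0.22, though the step to oar-let-7i in CON fetus 3 was within counting error. It was above novel_miR_33 in 4 of 6 libraries, with a log2 ratio of 0.12 ± 0.32, so this pair did not differ beyond its spread. It was above oar-miR-99a in 5 of 6 libraries (0.23 ± 0.18), and above oar-miR-27a (0.30 ± 0.12), oar-miR-10a (0.78 ± 0.18) and oar-let-7f (0.91 ± 0.22) in 6 of 6.

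The place of novel_miR_33 next to oar-miR-21 moved with the library. This newly predicted entry was not matched to known miRNAs here, so it may be one with a known name. novel_miR_33 was at 33979, 20349 and 22051 RPM in UN, against 38236, 34846 and 34686 RPM in CON. The UN libraries were all below the CON ones, as for 70 of the 567 miRNAs tested (12.3%), and its log2 fold change of -0.53 had an adjusted P of 0.84 (limma). It stood directly below oar-miR-21 in UN fetus 1 and CON fetus 2 and above it in CON fetuses 1 and 3.

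**Figure D4:**
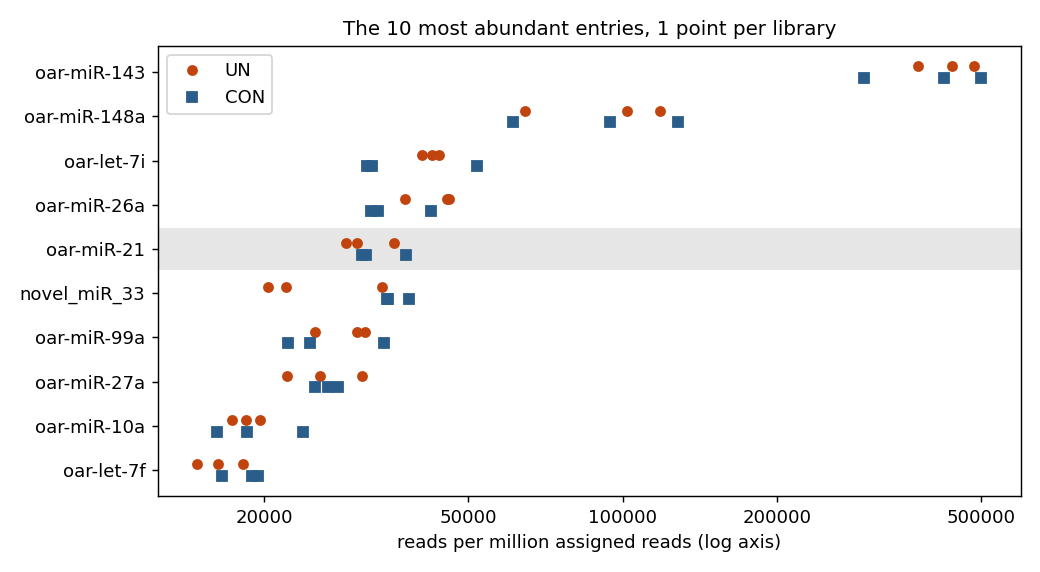
Level of the 10 most abundant entries in RPM (log axis), 1 point per library, with UN above CON in each line and oar-miR-21 shaded. oar-miR-21 lies between 28845.5 and 37825 RPM, with its UN and CON points interleaved.

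oar-miR-21 was among the steadier of the abundant miRNAs. On the deposited scale, its SD of log2(RPM + 1) over the 6 libraries was 0.15, the fifth smallest of the 20 most abundant entries, whose median SD was 0.24. Without oar-miR-143 the SD was 0.11, rank 2 of the other 19, whose median was 0.18. Of all entries past the filter on low reads, it was number 51 of 567 from the steadiest on the deposited scale and number 37 of 566 without oar-miR-143, where the median SD was 0.26 and 0.25. Rare entries carry more counting error, so the comparison with the 20 abundant ones is the closer one.

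The spread within groups was 0.16 on the deposited scale (order 4 of 20) and 0.12 without oar-miR-143 (order 5 of 19). As CV, it was 11.7% in UN and 11.3% in CON on the deposited scale, and 7.23% in UN and 9.77% in CON without oar-miR-143. With each library left out in turn, oar-miR-21 held order 2 to 5 of 20 on the deposited scale and order 1 to 6 of 19 without oar-miR-143. The place within the order thus rested on single libraries, with order 1 reached without UN fetus 2 or without CON fetus 3, and order 6 without UN fetus 3.

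The entries around it show how far the scale decides what is steady. On the deposited scale, the smallest SD belonged to oar-let-7a (0.12), novel_miR_395 (0.14) and oar-let-7g (0.15), and the largest to oar-miR-148a (0.45), novel_miR_33 (0.39) and oar-miR-127 (0.31), a miRNA of the imprinted DLK1-DIO3 region. Without oar-miR-143, the smallest were those of oar-miR-199a-3p, a miRNA of mesenchymal cells, at 0.105, oar-miR-21 at 0.111 and oar-let-7g at 0.123. The largest were then those of novel_miR_33 (0.36), oar-miR-148a (0.28) and novel_miR_395 (0.25), although novel_miR_395 was among the steadiest on the deposited scale. oar-miR-21 and oar-let-7g lay among the 5 smallest on both scales. With 6 libraries, no test of a difference between SDs was made.

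**Figure D5:**
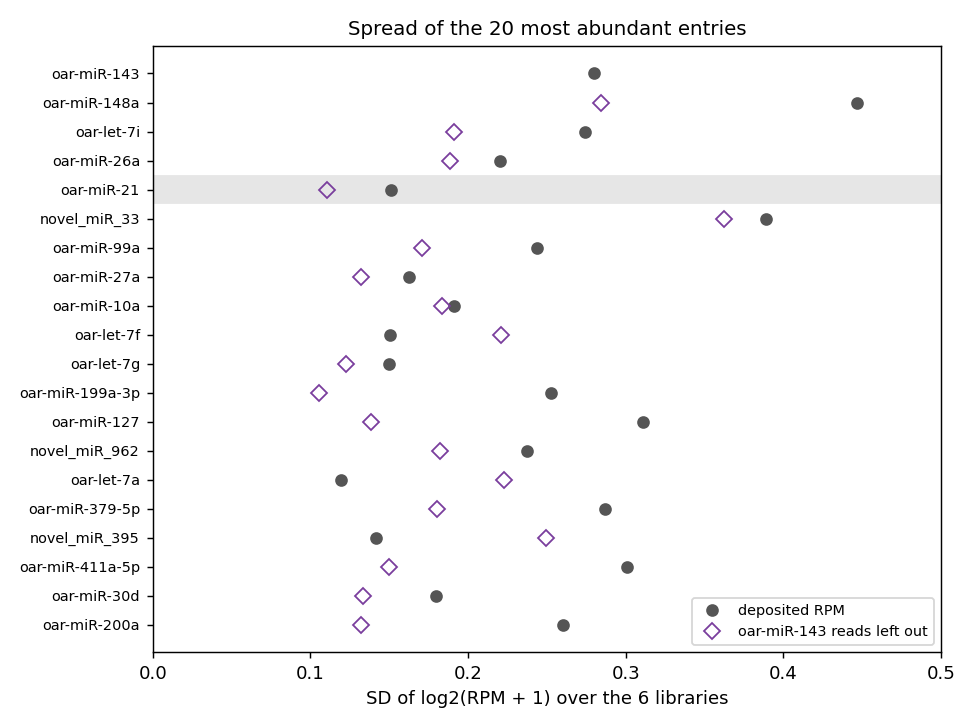
SD of log2(RPM + 1) over the 6 libraries (horizontal axis) for the 20 most abundant entries, on the deposited scale (filled circles) and with oar-miR-143 reads left out (open diamonds), with oar-miR-21 shaded. oar-miR-21 has 0.15 and 0.11, below the medians of 0.24 and 0.18.

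The entries with the pattern most like that of oar-miR-21 were found by Pearson's r of log2(RPM + 1) over the 6 libraries, as a description. On both scales, novel_miR_261 and novel_miR_788 came first, with r of 0.97 on the deposited scale and 0.99 without oar-miR-143. These are a single pattern, because both entries have the same sequence and the same reads, 229599 over the 6 libraries. Newly predicted entries were not matched to known miRNAs here, so those in this comparison may have known names.
novel_miR_261: uGGCUCAGuucagcaggaac
novel_miR_788: uGGCUCAGuucagcaggaac
Per 1000000 reads other than oar-miR-143, novel_miR_261 was at 2853, 2489.5 and 2926 RPM in UN, against 2521, 2585 and 3218 RPM in CON. As for oar-miR-21, the lowest library was UN fetus 2 and the highest was CON fetus 3. These r are the highest of 566 on the deposited scale and of 565 without oar-miR-143, each over 6 libraries. The most negative r were -0.89 and -0.99 on these scales, the latter for an entry at a mean of 0.38 RPM. How high an r such a search gives without a shared pattern was not tested.

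The next entries were not the same on both scales. On the deposited scale, they were novel_miR_147 (r = 0.95), novel_miR_785 (0.94) and novel_miR_993 (0.93), and 12 of the 566 entries compared had r over 0.9. novel_miR_147 rested on 332 reads over all libraries. On this scale, r between oar-miR-21 and oar-miR-143 was -0.83, and all entries share the total that oar-miR-143 takes part of. Without oar-miR-143, they were oar-miR-30a-3p (0.93), novel_miR_900 (0.93) and oar-miR-200c (0.88), an epithelial miRNA, and 4 of 565 had r over 0.9. Both counts take novel_miR_261 and novel_miR_788 as separate entries. Entries share a total on the scale without oar-miR-143 too, and r between oar-miR-21 and oar-miR-148a was -0.76 there.

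miR-21 is often measured beside other miRNAs of fibrosis and of inflammation. Of 8 such names for fibrosis and mesenchyme, 6 entries were found under their sheep names, and 0 of them were called in either direction at the adjusted threshold (limma). The median log2 fold change of the 6 was -0.15, beside -0.12 over all miRNAs. The list holds the epithelial miRNAs oar-miR-200a, oar-miR-200b and oar-miR-200c beside 3 other members, so its sum is not that of mesenchymal miRNAs alone. The summed level of the 6 was 23665 to 29716 RPM in UN, against 27683.5 to 38352.5 RPM in CON. The most abundant, oar-miR-199a-3p, averaged 14278 ± 2008 RPM in UN and 15826.5 ± 3631 RPM in CON, with a log2 fold change of -0.13 and an adjusted P of 0.92 (limma).

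Of that list, 1 of 6 members had an unadjusted P under 0.05, beside 5.11% of all miRNAs tested. oar-miR-200b, a miRNA of epithelial cells that represses the ZEB factors, was at 5523, 4358 and 4910 RPM in UN, against 6937, 7397 and 6477 RPM in CON. The UN libraries were all below the CON ones, which held for 12.3% of all miRNAs tested, and the log2 fold change was -0.50 with an SE of 0.18 (unadjusted P = 0.016 and adjusted P = 0.84 from the limma fit across all miRNAs). Of 7 names for inflammation, the sheep-named list held oar-miR-181a alone, which averaged 838 ± 123 RPM in UN and 768 ± 188 RPM in CON (log2 fold change 0.14, adjusted P = 0.94, limma).

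Markers of other cell types that the tissue could hold were read beside oar-miR-21. The 3 sheep-named epithelial markers of 5 names, oar-miR-200a, oar-miR-200b and oar-miR-200c, summed to 11663 to 14196 RPM in UN and 14495 to 18317 RPM in CON. These are the same 3 entries as in the fibrosis list. The sums in UN were all below those in CON, but how often sums of 3 other entries do so was not counted. The median log2 fold change of the 3 was -0.26, beside -0.12 over all miRNAs, and 0 were called at the adjusted threshold (limma). Taken singly, the groups overlapped for oar-miR-200a and oar-miR-200c, with adjusted P values of 0.85 and 0.89 (limma), and not for oar-miR-200b. oar-miR-143, 1 of 2 names for smooth muscle, had a log2 fold change of 0.12 with an adjusted P of 0.92 (limma). For blood and immune cells, oar-miR-150 alone was found of 6 names, at 3.36 to 4.36 RPM in UN and 3.77 to 6.02 RPM in CON. For striated muscle, oar-miR-133 alone was found of 3 names, at 160 to 280 RPM in UN and 232 to 268 RPM in CON. The names for liver and endothelium matched no sheep-named entry, and newly predicted entries were not given names. Listed miRNAs that were not found, the other epithelial names included, may therefore stand among the newly predicted entries. The marker values cover sheep-named entries only. The part of these markers in the level of oar-miR-21 was not tested.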

How the data were processed

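Small RNA of fetal rumen was measured in 3 UN and 3 CON fetuses, grouped by the sample labels. The authors mapped trimmed reads to a sheep assembly with Bowtie2, then deposited a value for each entry. Their column carries the name TPM, but the values sum to 1000000 without division by length, so they are the authors' RPM. All values above 0 were whole reads within 0.001 (100%), and these reads were recovered as counts from the deposited RPM. The labels name another library kit than the methods (NextFlex), and the version of Bowtie2 is not given in the sources used here.

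Levels were tested with limma 3.58.1 (trend, not robust; R 4.3.3) on log2(RPM + 1), a pseudocount of 1, over the 567 entries past edgeR's filterByExpr (minimum count 10, minimum total 15), adjusted by Benjamini-Hochberg at 0.05, and by exact permutation tests (scipy 1.17.1). edgeR 4.0.16 and DESeq2 1.42.0 on the recovered reads, other scalings, pseudocounts and filters, a replicate block and leaving out each library were alternatives. limma was also run on simulated data, with changes placed only in entries less abundant than oar-miR-21, so that run does not bear on its result. Within groups, libraries did not repeat each other: chi-square per degree of freedom was 251.7 to 2277 over the 6 within-group pairs.

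Entries named are oar-miR-21, oar-miR-143, the 10 most abundant, the 5 most like oar-miR-21 on each scale, the 3 most and 3 least variable of the 20 most abundant, and, of 2 lists (fibrosis and mesenchyme, inflammation), the most abundant member and any with unadjusted P under 0.05. novel_miR_924, novel_miR_529, novel_miR_76, novel_miR_879 and novel_miR_775 lie outside this rule and were named after their values were seen. Markers of 6 cell types were summed. oar-miR-21 and these lists were chosen with earlier results of these data known.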

Additional observations from a re-analysis of the deposited data

How the results depend on the processing

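oar-miR-21 did not pass the adjusted threshold under any of the 16 alternatives of the limma result. Its log2 fold change, -0.08 on the deposited scale, was above 0 with TMM (0.030), quantile normalization (0.024), edgeR (0.088) and DESeq2 (0.087), and ranged from -0.17 to 0.011 with 1 library left out, above 0 only without CON fetus 2. The difference in mean level, -1795 RPM, was 622 RPM with TMM and ranged from -3891 to 379 RPM with 1 library left out. The difference in reads per 100 oar-miR-143 reads, -1.37, ranged from -2.62 to 0.63, above 0 only without CON fetus 2. The cause of these changes of sign was not tested.

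The mean level in UN and CON was 55918 and 56862.5 RPM without oar-miR-143 and 35815 and 38801 RPM over the sheep-named entries, because the total is smaller, and the mean rank was 4.5 in place of 5.5 without oar-miR-143, because 1 entry is left out. With 1 library left out, the mean level ranged from 29585 to 33098 RPM in UN and from 31302 to 34724 RPM in CON, the mean rank from 5.4 to 5.6 and the SD of log2 from 0.12 to 0.17.

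Of all miRNAs, 0 were called higher in UN at the adjusted threshold, against 1 without oar-miR-143, with TMM, with quantile normalization and with edgeR, 2 with DESeq2, and 0 to 2 with 1 library left out, with 2 without CON fetus 2. For lower in UN, the count was 0, against 2 with DESeq2 and 0 to 1 with 1 library left out, with 1 without CON fetus 2 and 1 without CON fetus 3. The 29 at an unadjusted P under 0.05 were 62 with no filter, where 1253 entries were tested, 2 over the sheep-named entries, where 137 were tested, and 14 to 54 with 1 library left out. The count was 18 without UN fetus 2, 50 without UN fetus 3, 14 without CON fetus 1, 54 without CON fetus 2 and 53 without CON fetus 3.

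With the replicate number as a replicate block, the log2 fold change was -0.08 with an SE of 0.18 (limma, adjusted P = 0.99), and 37 miRNAs had an unadjusted P under 0.05. Deviations of same-numbered libraries correlated at -0.07, 0.07 and 0.19, and 3 of 6 libraries correlated best with their own number, so the numbers were not taken as pairs. Depth did not limit the level of oar-miR-21. The number of fetuses, 3 in each group, did limit its comparison.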
